A study of Sus scrofa with 4 samples.

Results

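Goblet cells are the mucus-secreting cells of the intestinal epithelium, and 4 of the genes that mark them were followed here in the ileum of suckling piglets: *CLCA1*, *RETNLB*, *SPINK4* and *SPDEF*. All probes assigned by RefSeq transcript to the pig versions of these genes were taken, which gave 9 probes of 43603 on the array, and 4 genes of the 2389 that could be named. *CLCA1* was read by 5 probes, *RETNLB* by 2 and *SPINK4* and *SPDEF* by 1 each. The ileum slices came from piglets aged 16 days, born to Yorkshire × Landrace sows and sired by Duroc boars, and all were nursed by their sows. Per the labels, 2 arrays held RNA pooled from 2 piglets of low weight gain and 2 arrays held RNA pooled from 3 piglets of high weight gain. The design text names birth weight in place of weight gain, and the grouping here is that of the sample labels. In each group the arrays carry the letters a and b, and no label says whether a and b came from different pools or from the same one. The spread behind every p-value is thus one between arrays, possibly technical, and says nothing of how single piglets vary.

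The goblet cell lineage splits from the absorptive lineage in the crypts, where Notch signalling holds cells back from a secretory fate. In mice, SPDEF, a transcription factor of the ETS family, acts late in this path and is needed for goblet cells to mature. Mature goblet cells secrete gel-forming mucin together with smaller proteins. CLCA1 is an abundant non-mucin protein of intestinal mucus, a metalloprotease that in mice cleaves the gel-forming mucin MUC2. RETNLB is a small cysteine-rich protein released into the lumen, and in mice it is induced by type 2 cytokines and acts on bacteria. SPINK4 is a Kazal-type inhibitor of serine proteases found in goblet cell secretions. No probe, transcript or protein sequence of these genes was used here.

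*CLCA1* rose in the ileum of low-gain piglets, by about the same factor on its 3 brightest probes (3.31-fold, 3.44-fold and 3.85-fold). *RETNLB* was 2.98-fold and 2.30-fold higher on its 2 probes without passing the test. The differences of *SPINK4* (1.38-fold) and *SPDEF* (1.37-fold) were smaller and did not pass either. Each of the 9 probes exceeded background clearly, by the scanner's flag, on all 4 arrays. On each of the 9, both low-gain arrays lay above both high-gain arrays, which was so for 27.6% of all 33264 probes tested. Of the 9 probes, 3 passed limma's test across all tested probes (Benjamini-Hochberg adjusted p under 0.05), against 0.0962% of all tested probes that passed as higher in low gain. In bulk tissue, more goblet cells and more RNA of these genes per goblet cell cannot be told apart.

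Levels are given as the log2 of the processed signal minus the 75th percentile of its array, so that 0 marks the 75th percentile. The brightest *CLCA1* probe, A_72_P146816, stood at 6.52 and 6.48 on low-gain arrays a and b, against 4.73 and 4.82 on high-gain arrays a and b. Before scaling, its processed signals were 37594 and 41469 units on the low-gain arrays and 12782 and 13265 units on the high-gain arrays. The groups lay far apart on this probe, while the arrays of a group differed by at most 0.09 (log2). The log2 change was 1.73 ± 0.10 (SE, n = 2 arrays per group, 95% confidence interval 1.44 to 2.01, limma adjusted p = 0.0393). Over the 4 pairings of a low-gain with a high-gain array, the fold lay between 3.17 and 3.46.

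A second bright probe of *CLCA1*, A_72_P644034, gave nearly the same picture, with levels of 6.52 and 6.48 on low-gain arrays and 4.68 and 4.75 on high-gain arrays (log2 change 1.78 ± 0.10, SE, n = 2 per group, limma adjusted p = 0.0370). The third, A_72_P617962, stood at 5.09 and 5.04 on low-gain arrays, against 3.08 and 3.16 on high-gain arrays, and had the largest change of the 5 (1.95 ± 0.10, limma adjusted p = 0.0323). These 3 probes are those that passed, and their intervals, which run from 1.44 to 2.23, overlap one another.

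The remaining 2 probes of *CLCA1* were dimmer and did not pass. Probe A_72_P583266 stood at 2.94 and 2.99 on low-gain arrays, against 1.62 and 1.29 on high-gain arrays. Its high-gain arrays differed by 0.34, the widest gap within a group among the 9 probes, and its log2 change was 1.51 ± 0.15 (SE, n = 2 per group, limma adjusted p = 0.0994). Probe A_72_P443562, the dimmest, stood at 0.73 and 0.76 on low-gain arrays and at 0.00 and 0.07 on high-gain arrays. The arrays of each group were close on it and the groups did not overlap, but its log2 change was smaller, 0.71 ± 0.10 (limma adjusted p = 0.139), with a 95% confidence interval of 0.43 to 0.98 that lay below those of the other 4 probes. The size of the *CLCA1* change therefore depended on the probe, from 1.63-fold to 3.85-fold. The mean over the 5 probes gave 1.53 and did not pass (limma adjusted p = 0.0687).

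**Figure D1:**
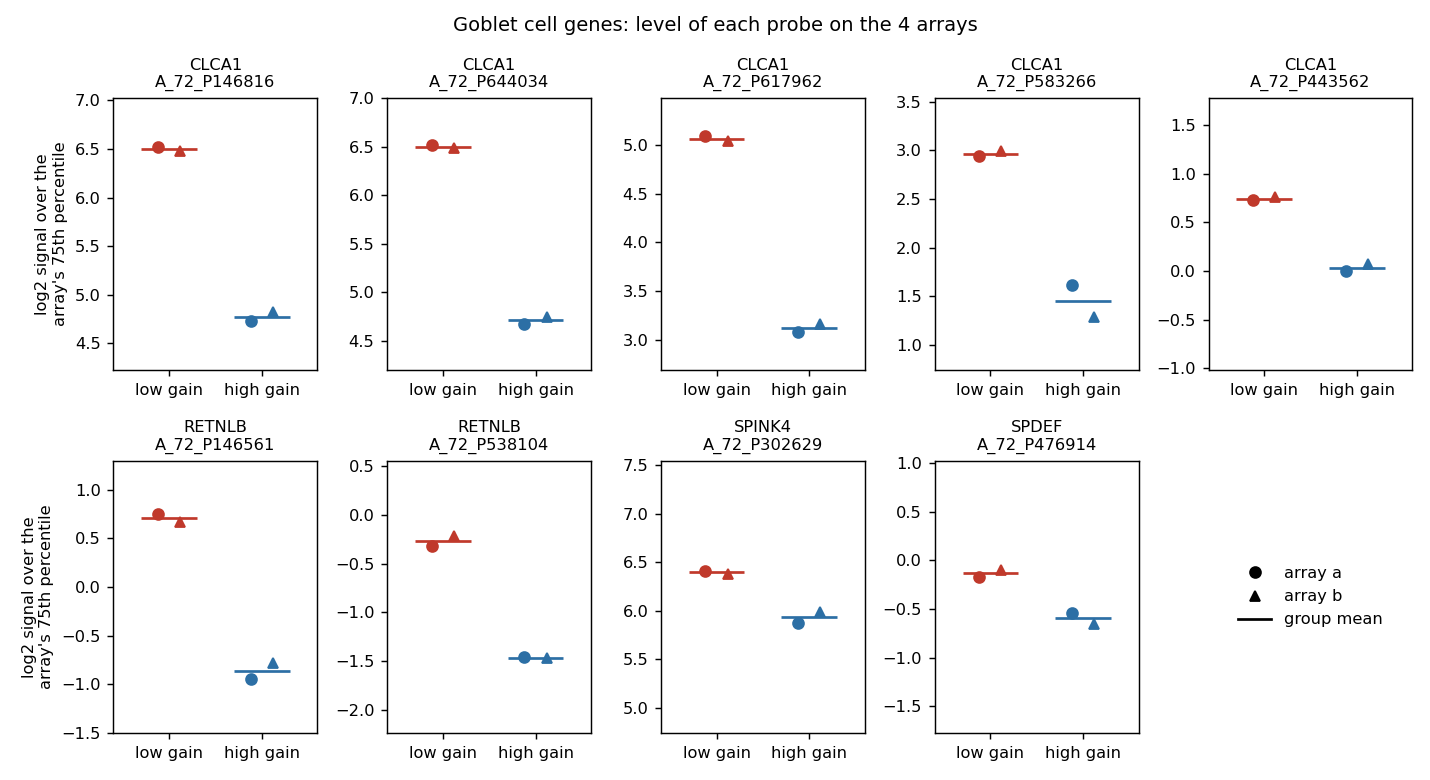
Level of each of the 9 probes on the 4 arrays, as log2 signal over the array's 75th percentile (y axis, the same span in each panel), with low gain on the left and high gain on the right. Circles are arrays a, triangles arrays b and lines group means; in every panel both low-gain arrays lie above both high-gain arrays, with the widest separation for CLCA1 probe A_72_P617962 (5.09 and 5.04 against 3.08 and 3.16) and the narrowest for SPINK4 and SPDEF.

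*RETNLB*, the resistin-like secreted protein, had the next largest difference. Its brighter probe, A_72_P146561, stood at 0.75 and 0.67 on low-gain arrays a and b, against -0.95 and -0.78 on high-gain arrays a and b, and both groups were tight beside the distance between them. The log2 change was 1.57 ± 0.12 (SE, n = 2 arrays per group, 95% confidence interval 1.25 to 1.89, limma adjusted p = 0.0561). The other probe, A_72_P538104, stood at -0.32 and -0.21 on low-gain arrays and at -1.46 and -1.47 on high-gain arrays. Its change of 1.20 ± 0.10 (limma adjusted p = 0.0761) had the same direction, and the intervals of both probes overlap.

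The related gene *RETN*, which encodes the hormone resistin, was looked at after the values were known, because its transcript might also bind probes of *RETNLB*. One *RETN* probe stood at -1.13 and -1.11 on low-gain arrays, against -2.87 and -2.93 on high-gain arrays, and passed the test (log2 change 1.78 ± 0.10, limma adjusted p = 0.0370). The brighter *RETN* probe differed by 1.04 ± 0.10 and did not pass (adjusted p = 0.0833). Cross-hybridisation between *RETN* and *RETNLB* was not tested. No other gene with a symbol beginning in CLCA, RETN or SPINK had a tested and named probe.

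*SPINK4*, the protease inhibitor, had a bright probe that differed little between groups. It stood at 6.41 and 6.38 on low-gain arrays a and b, against 5.88 and 5.99 on high-gain arrays a and b. The groups did not overlap, and the log2 change was 0.46 ± 0.10 (SE, n = 2 arrays per group, 95% confidence interval 0.17 to 0.75, limma adjusted p = 0.193). In fold terms the interval runs from 1.13 to 1.68, below the interval of the brightest *CLCA1* probe (2.72 to 4.03). Whether the changes of these genes differ from one another was not tested.

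*SPDEF*, the transcription factor of goblet cell maturation, stood at -0.17 and -0.10 on low-gain arrays a and b, against -0.54 and -0.65 on high-gain arrays a and b. The low-gain arrays were again the higher ones, and the arrays of a group differed by at most 0.12. Its log2 change was 0.46 ± 0.11 (SE, n = 2 arrays per group, 95% confidence interval 0.16 to 0.76, limma adjusted p = 0.196). Its processed signals were 365 and 434 units on low-gain arrays and 333 and 300 units on high-gain arrays. These raw signals lay closer together than the scaled levels, since the 75th percentiles subtracted were 410.8 and 464.8 units on low-gain arrays and 482.8 and 470.8 units on high-gain arrays.

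**Figure D2:**
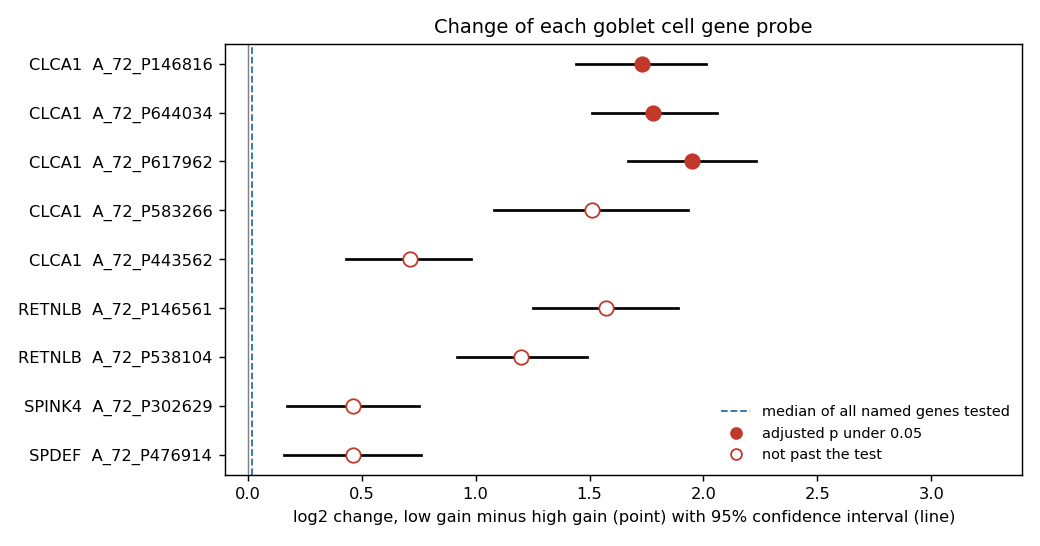
Log2 change of each probe, low gain minus high gain (x axis), with its 95% confidence interval as a line and the median over all named genes (0.02) as a dashed line. Filled points passed the test; the 3 bright CLCA1 probes lie at 1.73 to 1.95, both RETNLB probes at 1.20 and 1.57, and SPINK4 and SPDEF at 0.46 each.

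By the probe with the highest mean signal, *CLCA1* had the sixth largest upward change of 2158 named genes tested, with 0.232% of genes above it, and *RETNLB* had 0.417% above it. For *SPINK4* and *SPDEF* the shares were 9.55% and 9.78%. The median change over the 4 genes was 1.02, beside 0.02 over all 2158 genes, and these genes were chosen with earlier results of the same data known. By gene, 1 of 4 (*CLCA1*) passed, against 0.232% of all genes that passed as higher in low gain.

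How many of these probes passed depended on how the fit treats the variance. When limma's prior variance followed signal intensity, 8 of the 9 probes passed, against 2.26% of all probes that passed as higher in low gain. *CLCA1* then passed on 5 of 5 probes (limma adjusted p 0.000345 to 0.0176), *RETNLB* on both (0.00146 and 0.00538) and *SPINK4* on its only one (0.0302), whereas *SPDEF* did not (0.0703). In the fit without that trend, none of the 9 probes passed once any 1 of the 4 arrays was left out, nor with the test limited to probes measured on all 4 arrays, with no filter on dim probes, with normexp background correction or with the letter as a replicate block. Log2 changes of the brightest *CLCA1* probe stayed between 1.68 and 1.77 with 1 array left out, while normexp gave 0.80 for *RETNLB* and 0.16 for *SPDEF*. An exact permutation test of 2 arrays against 2 cannot give a two-sided p below 0.333.

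Other genes of goblet cells and mucus did not pass. Of 29 on a list of this kind, 6 had a tested probe under their RefSeq name, and the gel-forming mucin and trefoil factor genes of the list were not analysed here. *MUC19*, a gel-forming mucin gene outside the list that was looked at after the values were known, differed by -0.34 ± 0.13 (limma adjusted p = 0.289). Of the 6 on the list, 5 had a higher mean in low gain, as 53.4% of all genes did, 0 passed by limma in either direction (1 had an unadjusted p under 0.05, as 21.6% of all genes did), and the median change was 0.26, beside 0.02 over all genes. *KLF4*, a transcription factor needed for goblet cells in the mouse colon, came nearest, at 0.42 and 0.42 on low-gain arrays against -0.18 and -0.07 on high-gain arrays (log2 change 0.55 ± 0.10, limma adjusted p = 0.173), and its other probe gave 0.58. It was the 1 gene of the list that passed with the intensity trend (adjusted p = 0.0380), where 5.19% of all genes passed as higher in low gain.

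The transmembrane mucin gene *MUC20* differed by 0.30 (limma adjusted p = 0.296). For *MUC13*, another transmembrane mucin, the brightest probe gave 0.06 (adjusted p = 0.802), while its 3 other probes gave 0.44 to 0.70. *CREB3L4*, which encodes a membrane-bound transcription factor, differed by 0.24, *BCAS1* by 0.29 and the tissue kallikrein gene *KLK1* by -0.22. For *CREB3L4* and *BCAS1* low-gain array a stood apart from low-gain array b by more than the group difference, at -4.48 and -5.65 for *CREB3L4* against -5.48 and -5.13 on high-gain arrays. Without low-gain array a their differences turned to -0.35 and -0.16, and that of *MUC13* to -0.03.

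In mice, the type 2 cytokines IL-4 and IL-13 act through their receptor chains and STAT6 to induce *CLCA1* and *RETNLB*. Of 17 genes listed for this axis and its neighbours, 9 were tested and 0 passed by limma in either direction (2 had an unadjusted p under 0.05, as 21.6% of all genes did), with a median change of -0.25. Among the ligands, *IL4* stood at -5.31 and -5.84 on low-gain arrays, against -5.97 and -6.22 on high-gain arrays (log2 change 0.52 ± 0.23, adjusted p = 0.324). *IL13* differed by 0.33 ± 0.29 (adjusted p = 0.566), was well above background on 1 of 2 high-gain arrays, and its arrays overlapped between groups. *IL5* differed by -0.03. The receptor genes *IL4R* and *IL13RA1* differed by -0.31 and -0.41, and the signal transducers *STAT6* and *STAT3* by -0.49 and -0.34. The other probe of *STAT6* gave -0.09, and the 3 other probes of *STAT3* ranged from -0.23 to 0.20. With 1 array left out, *IL4* spanned 0.26 to 0.78, *IL4R* -0.56 to -0.06, *IL13RA1* -0.69 to -0.14 and *STAT3* -0.49 to -0.19, with both receptor genes nearest 0 without high-gain array a. *GATA3*, a transcription factor of type 2 lymphocytes, differed by -0.25, and its other probe by -0.12. *AREG*, which encodes a ligand of the epidermal growth factor receptor, had the largest difference of the list, 1.45 ± 0.14, and its other probe lay in the same direction. It did not pass as fitted here (limma adjusted p = 0.0895) and passed with the intensity trend (0.0137). Normexp gave 0.48 for *AREG* and 0.05 for *IL4*, and normexp with bright backgrounds replaced gave 0.86 and 0.16.

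In the 3 lists given next, markers of other cells in the slice also tended to have higher means in low gain. Lists with medians below 0 are given further on. Each tested gene of the 3 lists was well above background on all 4 arrays. Of 6 tested pan-epithelial markers, 5 were higher in low gain (median change 0.34), and their summed level, in multiples of the 75th percentile, was 194 and 200 on low-gain arrays, against 154 and 156 on high-gain arrays. *CDH1* (0.58, its other probe 0.27) and *CLDN3* (0.55) led this list, and *CLDN4* (-0.48) went the other way. *KRT8* had its highest levels (6.69 and 6.67 on low-gain arrays, 6.19 and 6.29 on high-gain arrays) and weighs most in the sums. The 2 other probes of *KRT8* ranged from -0.30 to 0.34. Of 9 tested enterocyte markers, 8 were higher (median 0.45), with sums of 495 and 500 on low-gain arrays, against 394 and 401 on high-gain arrays, led by the peptidase genes *ANPEP* (0.68) and *ENPEP* (0.48). The 2 other probes of *ANPEP* ranged from 0.14 to 0.55 and those of *ENPEP* from 0.00 to 0.43. *APOA1* went the other way (-0.24, its other probe -0.25). It was among the brightest of this list (6.57 and 6.57 on low-gain arrays, 6.91 and 6.71 on high-gain arrays). *SLC5A1* was at 0.08, and its 3 other probes ranged from -0.63 to 0.07. Of 5 tested smooth muscle markers, 4 were higher (median 0.48), with sums of 308 and 303 on low-gain arrays, against 235 and 233 on high-gain arrays. *MYLK* was at 0.56 and *DES* at 0.51 (the 2 other probes of *DES* lay at -0.34 and -0.02). *ACTA2* went the other way, at -0.25, and its 3 other probes ranged from -0.61 to 0.23. *DES* had the highest levels of this list (7.38 and 7.33 on low-gain arrays, 6.81 and 6.87 on high-gain arrays) and weighs most in its sums. None of these 3 lists had a gene past the test by limma (at an unadjusted p under 0.05 they had 3, 6 and 4 genes, against 21.6% of all genes), and with the intensity trend 3 of 6, 5 of 9 and 4 of 5 passed as higher, where 5.19% of all genes did. The part of tissue makeup in the goblet cell gene differences was not tested.

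The differences of *SPINK4* and *SPDEF* (0.46 each) were of the size of the medians of these lists, and those of *CLCA1* and *RETNLB* were larger. Those medians were 0.34 for pan-epithelial, 0.45 for enterocyte and 0.48 for smooth muscle markers. After the median of the pan-epithelial markers on the same array was subtracted, the change of *CLCA1* was 1.36 and that of *RETNLB* 1.21, with both low-gain arrays above both high-gain arrays. The same subtraction left 0.09 for *SPINK4*, whose centred values were 0.06 and 0.01 on low-gain arrays and -0.12 and 0.01 on high-gain arrays. It left 0.09 for *SPDEF* too, with 0.01 and 0.06 on low-gain arrays and -0.01 and -0.10 on high-gain arrays. With enterocyte markers in their place, the changes were 1.32 for *CLCA1*, 1.16 for *RETNLB* and 0.05 for each of *SPINK4* and *SPDEF*. These are descriptions without a test.

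Lists of other secretory and immune cells had medians on both sides of 0. Of 5 tested Paneth cell and antimicrobial genes, *BPI* rose (2.45, limma adjusted p = 0.0383) and *LYZ* fell (-1.52, limma adjusted p = 0.0467), and the median was 1.06. Enteroendocrine genes had a median of 0.33 over 9 genes, with *CHGB* at 0.63 and *SCGN* at 0.54. Of the 9, 7 were higher in low gain, while *CCK* (-0.09) and *SCG5* (-0.18) were lower. *SCGN* was dim (-5.17 and -5.28 on low-gain arrays, -5.83 and -5.7 on high-gain arrays). Its difference was 0.22 with the authors' deposited values, 0.09 with normexp and bright backgrounds replaced and 0.03 with normexp. T and NK cell genes had a median of 0.80 over 10 genes, of which *GZMK* rose (1.67, limma adjusted p = 0.0383) and *GZMH* (1.28) did not pass. In the same list *CD3E* was at 0.53, *CD3G* at 0.44, *CD4* at 0.15 and *CD3D* at -0.21. *CD8A* was at 0.95, with its other probe at 0.03. The median of 5 mast cell and eosinophil genes was 0.24. Among them the eosinophil receptor gene *CCR3* was not well above background on either high-gain array, and on the processed signal its low-gain level exceeded theirs by at least 4.14-fold (limma adjusted p = 0.0807). This bound does not hold under other processing, where its log2 difference was 1.80 with the authors' deposited values, 0.41 with normexp and bright backgrounds replaced and 0.20 with normexp. *GATA2* was at 0.27 and spanned 0.04 to 0.50 with 1 array left out. Crypt and cell cycle genes had a median of -0.11 over 8 genes (*AURKA* -0.78, *CCNB2* -0.55). In this list 6 genes were lower in low gain, while the crypt genes *ASCL2* (0.53) and *SOX9* (0.40) were higher. The median was -0.35 over 6 macrophage and dendritic cell genes (*SIGLEC1* and *CD80*, the second at -0.59). It was 0.07 over 3 B cell genes (*PIGR* 0.34, *CD79A* -0.31). *SIGLEC1* was below the scanner's detection flag on 1 low-gain array, and its difference of -1.57 was -0.97 with the authors' deposited values, -0.12 and -0.10 with the normexp versions, and -2.04 to -1.09 with 1 array left out. The calls of *BPI*, *LYZ* and *GZMK* each held in 7 of 15 settings, the fit above included. With any 1 array left out of that fit they were lost (limma adjusted p 0.0951 to 0.504), while the intensity trend without low-gain array a kept them. Normexp gave 1.07 for *BPI* and 0.55 for *GZMK*, and normexp with bright backgrounds replaced gave 1.97 and 1.12. Tuft cell genes were not analysed here.

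**Figure D3:**
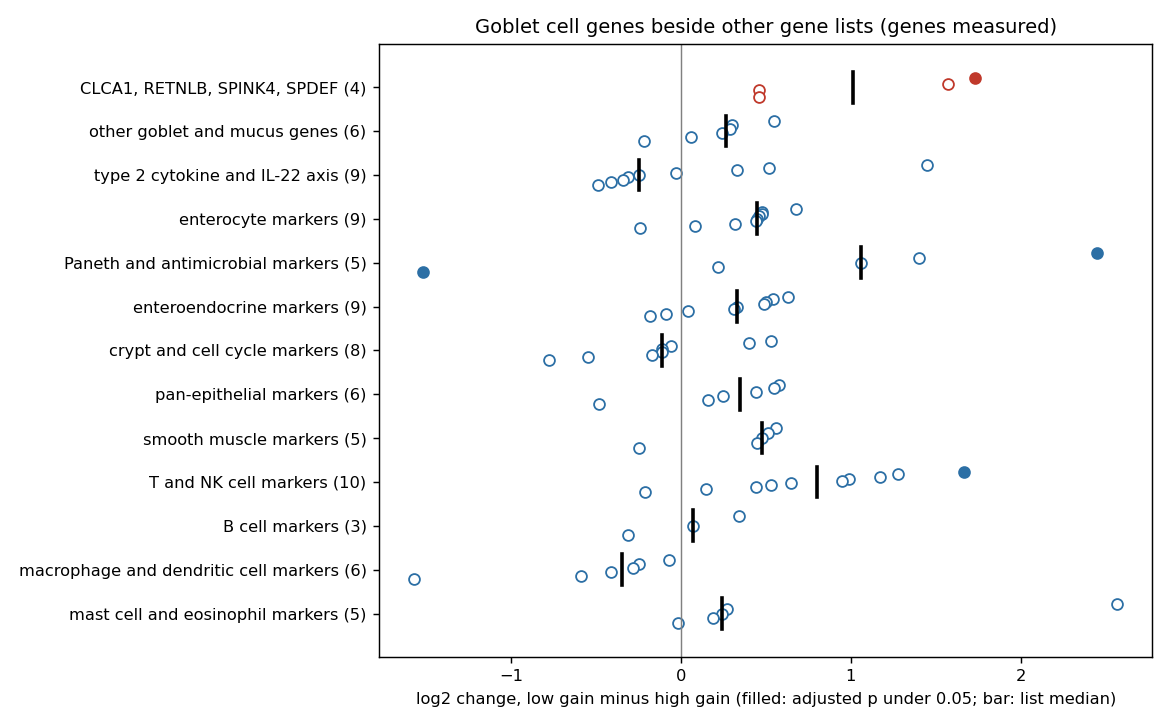
Log2 change, low gain minus high gain (x axis), of each tested gene in 13 lists, with 1 point per gene, filled where the gene passed the test, and a bar at the list median. The 4 goblet cell genes (top row) have a median of 1.02, other goblet and mucus genes one of 0.26, and the rightmost point of the bottom row, CCR3, is a fitted value of a gene not well above background on either high-gain array.

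The genes most like *CLCA1* over the 4 arrays, by the root mean square difference of log2 levels after each gene was centred on its own mean, were *GZMK* (0.0464), *SFTPD* (0.0733) and *RETNLB* (0.0819), of 2157 candidates. For *SPINK4* the nearest were *FUT1*, *KRT8* and *SLC44A4*, and for *SPDEF* they were *NR1I2*, *PFKFB1* and *SOX9*. Only 4 genes lay within 0.1 of *CLCA1*, whereas 187 lay within 0.1 of *SPINK4* and 109 within 0.1 of *SPDEF*. With 4 arrays in 2 groups, this measure mostly reflects the size of the group difference.

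All 4 arrays lay on 1 slide with 1 scan time, so neither separates the groups. Between 32835 and 33972 of 43803 non-control spots were well above background on each array. Repeat spots were noisiest on low-gain array a, with a median SD of 0.140 (log2), against 0.0838 on low-gain array b and 0.0892 to 0.0912 on high-gain arrays. Without that array, the log2 change of the brightest probe was 1.71 for *CLCA1*, 1.53 for *RETNLB*, 0.45 for *SPINK4* and 0.49 for *SPDEF*. The median pixel signal of the 9 probes was 10.3 to 2190 times the local background, and each was read from 1 spot per array.

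**Figure D4:**
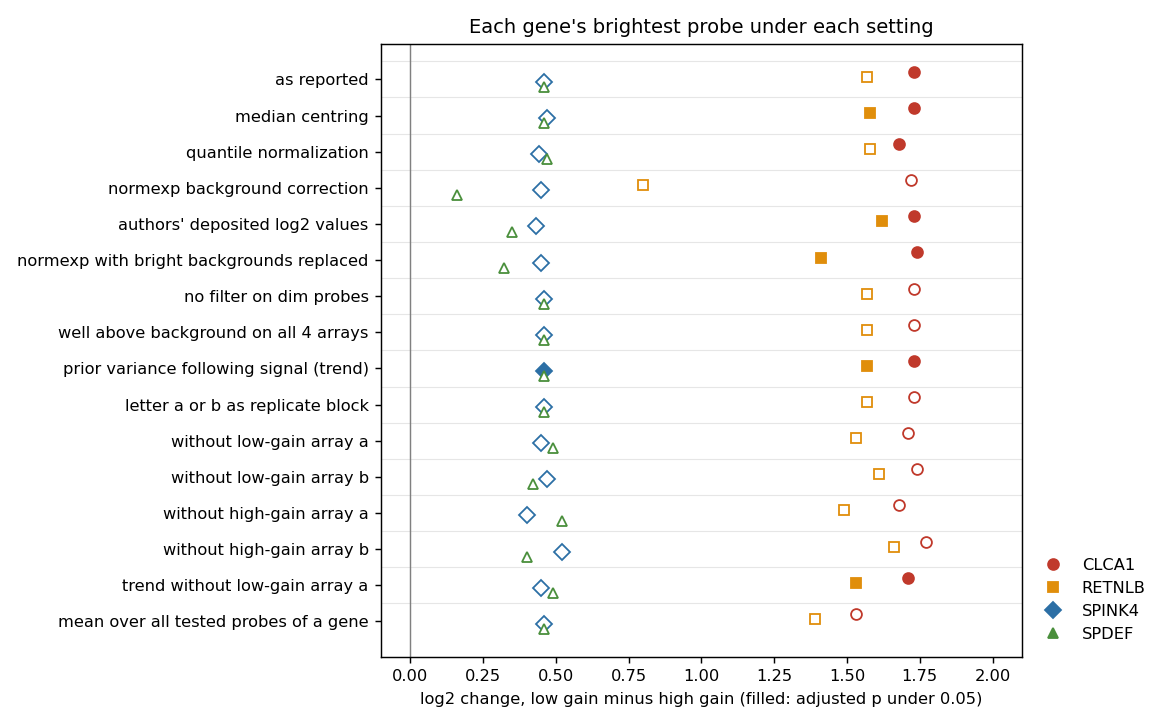
Log2 change, low gain minus high gain (x axis), of the brightest probe of each gene as reported and under each other way of processing the arrays (rows), filled where the adjusted p was under 0.05. The brightest CLCA1 probe stays between 1.68 and 1.77, and the row of the mean over all tested probes of a gene has CLCA1 at 1.53. The calls of CLCA1, RETNLB and SPINK4 differ between rows.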

How the data were processed

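The authors deposited Agilent Feature Extraction 10.7.3.1 files of 1-colour (Cy3) arrays. The processed signal is a linear intensity after the software's background treatment, per the file headers. Log2 values of these arrays, in a table, were deposited too, with processing and centring not given in the sources used here. Comparison showed a log2 scale against the scanner values (slopes 1.00 to 1.01 above background, column medians 5.62 and 5.59 for low gain and 5.67 and 5.60 for high gain), and it served as an alternative.

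From the intensity values, log2 processed signal minus the 75th percentile over non-control spots was computed. Outlier spots were left out, spots of a probe averaged and 48 probes with a missing value dropped. Probes well above background on both arrays of at least 1 group were tested (33264). Low gain was compared with high gain with limma 3.58.1 (lmFit, eBayes; R 4.3.3), and p-values were adjusted by Benjamini-Hochberg over every probe tested. The number of arrays limits the precision. The fit was tested on simulated data. Other scalings, background corrections, filters, variance priors, a replicate block and each array left out were tried as alternatives.

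RefSeq accessions of the array design were matched without versions to a gene table of Sscrofa11.1 (5461 of 5779 probes). The probe with the highest mean stood for a gene. The files name no build, so no coordinates are given. Named were all member probes, every tested gene of the goblet and type 2 lists, the 2 largest changes of each other list, and the 3 genes nearest to *CLCA1*. The nearest genes of *SPINK4* and *SPDEF*, *RETN*, *MUC19*, *ACTA2*, *CLDN4*, *CD3D*, *CD3E*, *CD3G*, *CD4* and *CD8A* were added after the values were seen. So were *APOA1*, *ASCL2*, *CCK*, *SCG5* and *SLC5A1*. Members and lists were chosen with earlier results of these data known.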

Additional observations from a re-analysis of the deposited data

How the results depend on the processing

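All 9 goblet cell probes kept their direction in each alternative run. Log2 changes of the brightest probe were 1.68 to 1.77 for *CLCA1*, 0.80 to 1.66 for *RETNLB*, 0.40 to 0.52 for *SPINK4* and 0.16 to 0.52 for *SPDEF*. The mean over the probes of *CLCA1* gave 1.53. Calls depended on the fit, and the cause was not tested unless given. The probes tested were 33264, except for 43555 without a filter on dim probes and 31471 with signal on all 4 arrays. Brackets give all probes past the test in either direction, while each member call was higher in low gain. Member probes past the test numbered 5 (163) with median centring, 3 (69) with quantile normalisation and 4 (99) with the authors' deposited values. With the intensity trend they numbered 8 (1250). They numbered 0 (12) without a filter on dim probes, 0 (0) with signal on all 4 arrays, 0 (0) with the letter as a replicate block and 0 (0) with normexp background correction. They were 0 (0 to 37) with 1 array left out, where a lone array is assumed to vary like the other group. At an unadjusted limma p under 0.05, the member probes were 9 without a filter, with signal on all arrays and with the replicate block, 8 to 9 with 1 array left out and 0 with normexp, and all probes numbered 6071 with signal on all arrays, 4703 with the block, 3071 and 5662 without a high-gain array and 0 with normexp. In alternatives added after seeing the data, normexp with bright backgrounds replaced gave 7 (1043) and the trend without low-gain array a gave 6 (197). Local backgrounds above 2 times the array median occurred on 36 spots of low-gain array a and 30 of high-gain array b, but on the member probes the background was 16 to 21.

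*CLCA1* lost its call at 1.72 with normexp (adjusted p = 1.0), at 1.73 without a filter (0.134), with signal on all arrays (0.0566) and with the replicate block (0.302), at 1.53 as a mean over probes (0.0687) and at 1.68 to 1.77 with 1 array left out (0.0956 to 0.504). *RETNLB* gained a call at 1.58 with median centring, 1.62 with the authors' deposited values, 1.41 with replaced backgrounds, 1.57 with the trend and 1.53 with the trend without low-gain array a, and *SPINK4* at 0.46 with the trend. The letters were not treated as pairs, since a minus b correlated at -0.04 between groups.

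Signs turned for 5 other genes, none past the test. These were *MUC13* (0.00 with quantile normalisation), *BCAS1* (0.00 with normexp), *CREB3L4* (-0.06 with normexp, -0.01 with the authors' values) and *IL13* (-0.02 with normexp). Without low-gain array a, with and without the trend, *BCAS1* was at -0.16, *CREB3L4* at -0.35 and *MUC13* at -0.03. With 1 array left out, *BCAS1* spanned -0.16 to 0.74, *CREB3L4* -0.35 to 0.83, *MUC13* -0.03 to 0.15 and *IL5* -0.11 to 0.04.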
